A study of Macaca mulatta with 4 samples.

Results

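The genes described here are 33 genes of the synaptic vesicle cycle and transmitter release, among the 33618 genes of the deposited count table. They were taken by symbol from a list of membrane fusion proteins, vesicle proteins, active zone proteins and vesicular glutamate transporters, and all 33 were found. The tissue was prefrontal cortex of wild type rhesus macaques (Macaca mulatta), sequenced as 2 libraries labelled control and 2 labelled sevoflurane. Animals of the sevoflurane group inhaled the volatile anaesthetic sevoflurane at about 2.5 to 3% in sessions of 4 hours, the first at about postnatal day 7 and the others 14 and 28 days after it or after one another, which the labels leave unclear. Cortex was collected at the end of the third session, so an acute anaesthesia and repeated exposure cannot be told apart. The labels give the agent of the control group as none, and the controls' handling and age are not given in those labels. Whether both libraries of a group are separate animals is not stated, and p-values then reflect only the spread between libraries, which may be technical.

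Transmitter release depends on a cycle. Vesicles are filled with transmitter, docked and primed at the active zone, fused with the membrane by SNARE proteins when calcium enters, and then retrieved by endocytosis. Volatile anaesthetics are known to depress release, and syntaxin 1A and the other SNARE proteins are among the presynaptic sites studied for their action. Several of these genes are also used as markers of neuronal maturation, since members of a family replace one another as the cortex develops.

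The main tests called no release gene different between the sevoflurane and control libraries, and the largest difference was in the vesicle protein gene SV2C. With 2 libraries per group, a lack of calls does not show that levels were equal. By the quasi-likelihood test of edgeR, 0 of the 33 genes passed an adjusted p of 0.05, a threshold that 0.599% of the 17693 tested genes passed. The counts were also 0 of 33 by DESeq2 (2.06% of all genes with an adjusted p) and 0 of 33 by limma-voom (0.622%). At an unadjusted p under 0.05, 5 of the 33 differed by edgeR. The share over all tested genes by edgeR was 9.92%, and 11.3% over the tested genes with a mean of at least 10.62 CPM, the lowest mean of the 33. CPM stands for counts scaled to a common library size after TMM (trimmed mean of M values) normalisation. The 5 genes by edgeR were SYT4, SYN2 and NAPB with higher values after sevoflurane, and SV2C and RPH3A with lower values. Log2 fold changes, sevoflurane against control, ran from -0.87 for SV2C to 0.39 for NAPB, with a median of 0.05 (all tested genes: -0.0021). The controls differed from each other, with 31 of the 33 genes higher in control replicate 3. Dropping control replicate 2 moved the median of the 33 to -0.12, while dropping control replicate 3 moved it to 0.23. The median absolute log2 fold change was 0.15, and 0.21 over all tested genes. In bulk tissue, fewer neurons and less RNA of a gene per neuron cannot be told apart.

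**Figure D1:**
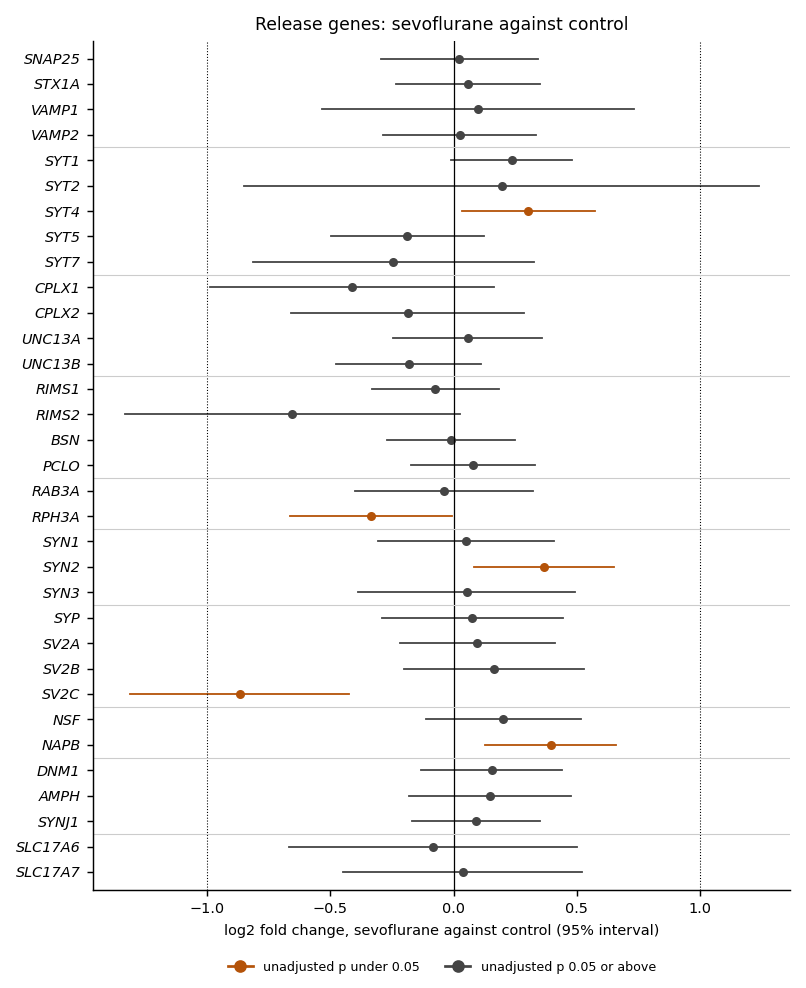
Log2 fold change of each release gene, sevoflurane against control (x axis), with its 95% interval from edgeR, ordered by role with grey lines between roles. Dotted lines mark a 2-fold change in either direction. SV2C lies farthest from 0 at -0.87, and the intervals of SYT2, RIMS2 and SV2C reach past a dotted line.

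The absence of calls can be read against the precision. The 95% interval of the log2 fold change lay within -1 and 1, less than a 2-fold change either way, for 30 of the 33 genes, against 62.4% of the tested genes that had a standard error (SE). For 22 of the 33 it lay within 1.5-fold either way, for which no share over all genes was computed. The 3 genes whose interval reached past 2-fold were SYT2 (-0.85 to 1.24), RIMS2 (-1.33 to 0.03) and SV2C (-1.31 to -0.42). The median SE of the 33 genes was 0.14, against 0.24 over all tested genes. The 33 had means of at least 10.62 CPM, while the tested genes include others with lower means. Precision was not compared at matched levels.

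Total counts were between 7793757 and 11706115 per library, lowest in control replicate 3, and the 33 genes took 1.3% to 1.57% of them. Cortical neuron markers were present in all 4 libraries, as shown by RBFOX3, a nuclear protein of mature neurons, at 138.7 and 228 CPM in controls and 175.6 and 193 CPM after sevoflurane. Among 14 tested general neuron markers 0 were called and the median log2 fold change was 0.10. The same counts were 0 of 11 excitatory (-0.07) and 0 of 14 inhibitory neuron markers (0.10). Markers of some other cells did differ, with most calls among those of oligodendrocytes. Of 9 endothelial markers 0 were called (median -0.04). Of 14 mature oligodendrocyte markers 12 were called lower and all 14 had both controls above both sevoflurane libraries, with summed levels of 9427 and 14882 CPM in the control libraries and 2459 and 3671 CPM after sevoflurane. Of 18 immediate early genes of neuronal activity 8 were called lower, and both controls were above both sevoflurane libraries for 16 (median -1.51). Over all tested genes 0.599% were called and 41.2% had groups that did not overlap, in either direction. The other calls were 2 of 11 oligodendrocyte precursor markers, 1 of 12 astrocyte markers (GFAP) and 1 of 11 microglia markers (CX3CR1), all lower. Of 10 meningeal fibroblast markers 1 was called higher, with summed levels of 312.5 and 188.8 CPM in controls and 687.3 and 285.8 CPM after sevoflurane. Their part in the values of the release genes was not tested.

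The SNARE proteins form the helical bundle that fuses a vesicle with the plasma membrane. SNAP25, a SNARE of the plasma membrane, was at 1033 and 1376 CPM in control replicates 2 and 3, and sevoflurane replicates 2 and 3 were at 1251 and 1198 CPM. VAMP2, its main partner on the vesicle, was at 916.8 and 1196 CPM in controls and 1102 and 1048 CPM after sevoflurane. STX1A, the syntaxin of the same complex, was at 171.7 and 202.6 CPM and then at 199.1 and 190.7 CPM. In all 3, both sevoflurane libraries lay between the control libraries. VAMP1, the second vesicle SNARE of the family, had the same arrangement at 8.98 and 14.1 CPM in controls and 13.2 and 11.3 CPM after sevoflurane. The log2 fold changes of these SNARE genes lay between 0.02 (SNAP25, SE 0.14, 95% interval -0.29 to 0.34) and 0.10 (VAMP1, SE 0.28, -0.53 to 0.73).

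Synaptotagmins are vesicle proteins, some of which sense calcium. SYT1, the fast calcium sensor of most forebrain synapses, was at 1164 and 1283 CPM in controls and at 1478 and 1405 CPM after sevoflurane. Both sevoflurane libraries were above both controls, and the log2 fold change of 0.24 (SE 0.11, 95% interval -0.01 to 0.48) did not pass the test (adjusted p = 0.529). SYT4, a synaptotagmin of dense-core vesicles whose gene is induced by depolarisation, had the same order. It was at 259.3 and 231.3 CPM in controls and 307.3 and 298.1 CPM after sevoflurane (0.30, SE 0.12, adjusted p = 0.44). In the same libraries 17 of 18 immediate early genes had log2 fold changes below 0.

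SYT2, the fast sensor of hindbrain synapses and of parvalbumin interneurons, was the member with the widest spread. It was at 9.07 CPM in control replicate 2 and at 34.3 CPM in control replicate 3, a ratio of 3.79. The sevoflurane libraries lay between them at 22.5 and 26.5 CPM, so the groups overlapped (log2 fold change 0.20, SE 0.46, adjusted p = 0.939). Its value rested on the control library used. Without control replicate 3 it was 1.43, and without control replicate 2 it was -0.49. PVALB, the calcium-binding protein that defines parvalbumin interneurons, was at 3.32 and 5.57 CPM in control replicates 2 and 3 and at 7.69 and 4.07 CPM after sevoflurane. Of 9 markers of these interneurons 5 were higher in control replicate 3. Their summed level was 548.6 and 569.4 CPM in the control libraries, most of it from KCNC2 (260.1 and 249.4 CPM) and ERBB4 (144.6 and 154.4 CPM). Their part in the SYT2 value was not tested. SYT5 (-0.19, SE 0.14) and SYT7 (-0.24, SE 0.25), the slow, high-affinity sensor of asynchronous release, did not pass either.

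Complexins clamp and then assist the assembled SNARE bundle, and UNC13 proteins prime vesicles by opening syntaxin. CPLX1 was at 142.6 CPM in control replicate 2 and 282.5 CPM in control replicate 3, and at 158.1 and 160.3 CPM after sevoflurane. The log2 fold change was -0.41 (SE 0.26, 95% interval -0.99 to 0.16, adjusted p = 0.673). As for SYT2, it was lowest without control replicate 2, at -0.83, and highest without control replicate 3, at 0.16. CPLX2 was at 24.0 and 33.9 CPM in controls and 25.5 and 25.3 CPM after sevoflurane (-0.19, SE 0.21).

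UNC13A, the main priming factor of excitatory synapses, was at 825.9 and 1058 CPM in controls and 968.3 and 991.4 CPM after sevoflurane (0.06, SE 0.13). UNC13B was at 190.5 and 224.4 CPM in controls and 177.2 and 188.3 CPM after sevoflurane (-0.18, SE 0.13, adjusted p = 0.727). Both controls were above both sevoflurane libraries for UNC13B but not for UNC13A.

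The active zone scaffolds hold calcium channels and primed vesicles together. The giant scaffold BSN was at 1348 and 1574 CPM in controls and 1480 and 1423 CPM after sevoflurane (-0.0097, SE 0.12). Its partner PCLO had 0.08 (SE 0.11). RIMS1, which links RAB3 on the vesicle to UNC13 and to calcium channels, was at 282.8 and 296.9 CPM in controls and 272.8 and 277.6 CPM after sevoflurane (-0.07, SE 0.11). RIMS2 was at 9.86 and 16.2 CPM in controls and 7.52 and 8.91 CPM after sevoflurane. Its log2 fold change of -0.65 (SE 0.30, adjusted p = 0.532) was the second largest of the 33 in size, with groups that did not overlap. Leaving out control replicate 3 gave -0.26, and leaving out control replicate 2 gave -0.98.

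RAB3A, the small GTPase that marks vesicles for docking, had a log2 fold change of -0.04 (SE 0.16). RPH3A, or rabphilin, a protein that binds RAB3A in its GTP form, was at 580.5 and 760.2 CPM in controls and 562.4 and 499.7 CPM after sevoflurane. Both controls were above both sevoflurane libraries, with control replicate 2 close to sevoflurane replicate 2. The log2 fold change was -0.34 (SE 0.15, adjusted p = 0.493). Without control replicate 2 it was -0.52, and without control replicate 3 it was -0.13.

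Synapsins are phosphoproteins that tether the reserve pool of vesicles. SYN2 was at 113.1 and 115.6 CPM in controls and 141.4 and 153.7 CPM after sevoflurane. The groups were apart by more than either pair was, with means of 114 ± 1.79 and 148 ± 8.67 CPM (SD, n = 2 per group). The log2 fold change was 0.37 (SE 0.13, 95% interval 0.08 to 0.65, adjusted p = 0.343). SYN1 was at 417.5 and 584.7 CPM in controls and 536.4 and 501.4 CPM after sevoflurane (0.05, SE 0.16), and SYN3 had 0.05 (SE 0.20).

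Vesicle membrane proteins gave the largest difference among the 33 genes. SV2C, one of the transporter-like SV2 glycoproteins and the isoform best known from the basal ganglia, was at 29.3 and 33.3 CPM in control replicates 2 and 3. It was at 15.5 and 18.7 CPM in sevoflurane replicates 2 and 3. The means were 31.3 ± 2.83 and 17.1 ± 2.20 CPM (SD, n = 2 per group), and the sevoflurane level was 0.548 of the control level (95% interval 0.402 to 0.746). The log2 fold change of -0.87 (SE 0.20) had adjusted p = 0.127 over all tested genes by edgeR, 0.0514 by DESeq2 and 0.121 by limma-voom, and so was not called. With 1 library left out in turn it stayed between -1.01 and -0.74.

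The other SV2 genes had values above 0. SV2A, the isoform found at nearly all synapses and the binding site of the antiepileptic levetiracetam, was at 347 and 442.4 CPM in controls and 439.3 and 403.9 CPM after sevoflurane (0.10, SE 0.14). SV2B was at 100.7 and 136.2 CPM in controls and 126.9 and 138.4 CPM after sevoflurane (0.17, SE 0.16). SYP, synaptophysin, a vesicle protein much used to count synapses, was at 641.1 and 898.7 CPM in controls and 872.2 and 749.9 CPM after sevoflurane (0.08, SE 0.16). In SYP and SV2A both sevoflurane libraries lay between the controls.

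**Figure D2:**
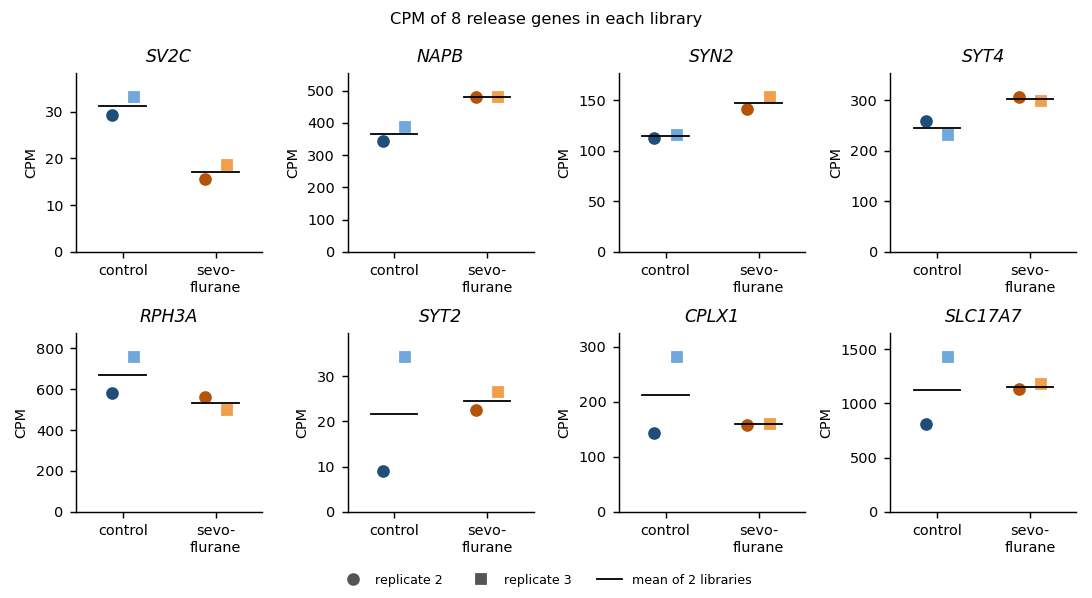
CPM (y axis, from 0) of 8 release genes in each of the 2 control and 2 sevoflurane libraries, with circles for replicate 2, squares for replicate 3 and bars for the mean of a group. The groups do not overlap for SV2C, NAPB, SYN2, SYT4 and RPH3A. For SYT2, CPLX1 and SLC17A7 both sevoflurane libraries lie between the control libraries.

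After fusion the SNARE bundle is pulled apart by the ATPase NSF with its SNAP adaptors. NAPB, the brain form of the adaptor, was at 342.6 and 388.8 CPM in controls and 481.9 and 479 CPM after sevoflurane. The sevoflurane libraries lay close together and above both controls, at 1.31 of the control level (95% interval 1.09 to 1.58). The log2 fold change of 0.39 (SE 0.12) was the highest of the 33 genes and was not called (adjusted p = 0.268). It lay between 0.30 and 0.49 with 1 library left out in turn. NSF was at 481.5 and 626.8 CPM in controls and 653.2 and 621.8 CPM after sevoflurane (0.20, SE 0.14, adjusted p = 0.716), with groups that overlapped.

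Retrieval of the vesicle uses DNM1, the GTPase that cuts the endocytic neck, AMPH, which recruits it, and SYNJ1, a lipid phosphatase that helps to shed the clathrin coat. DNM1 was at 439.6 and 513.3 CPM in controls and 563.6 and 496.9 CPM after sevoflurane (0.15, SE 0.13). AMPH (0.15, SE 0.15) and SYNJ1 (0.09, SE 0.12) had values as small.

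The vesicular glutamate transporters load the vesicle, SLC17A7 (VGLUT1) in most neurons of the mature cortex and SLC17A6 (VGLUT2) in thalamic neurons and in younger cortex. SLC17A7 was at 813.6 and 1433 CPM in controls and 1131 and 1175 CPM after sevoflurane. Both sevoflurane libraries fell inside the gap between the controls (0.04, SE 0.22, adjusted p = 0.974). Without control replicate 3 the value was 0.50, and without control replicate 2 it was -0.31. SLC17A6 was at 20 and 16.0 CPM in controls and 13.4 and 20.7 CPM after sevoflurane (-0.08, SE 0.26), with groups that overlapped.

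Across the 33 genes the arrangement of the libraries was uneven. The lowest value was in control replicate 2 for 23 genes and the highest in control replicate 3 for 22. Over all tested genes these shares were 24.8% and 31%. Both sevoflurane libraries lay between control replicate 2 below and control replicate 3 above for 15 of the 33, and for 11% of all tested genes. The groups did not overlap for 10 of the 33 (4 with sevoflurane higher and 6 with control higher), against 41.2% of all tested genes. Summed over the 33 genes, levels were 12800 CPM in control replicate 2, 16271 CPM in control replicate 3, and 15329 and 14887 CPM after sevoflurane. The control libraries thus held both the lowest and the highest sum. The median log2 fold change of the 33 genes changed sign with the control library left out, at -0.12 without replicate 2 and 0.23 without replicate 3.

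**Figure D3:**
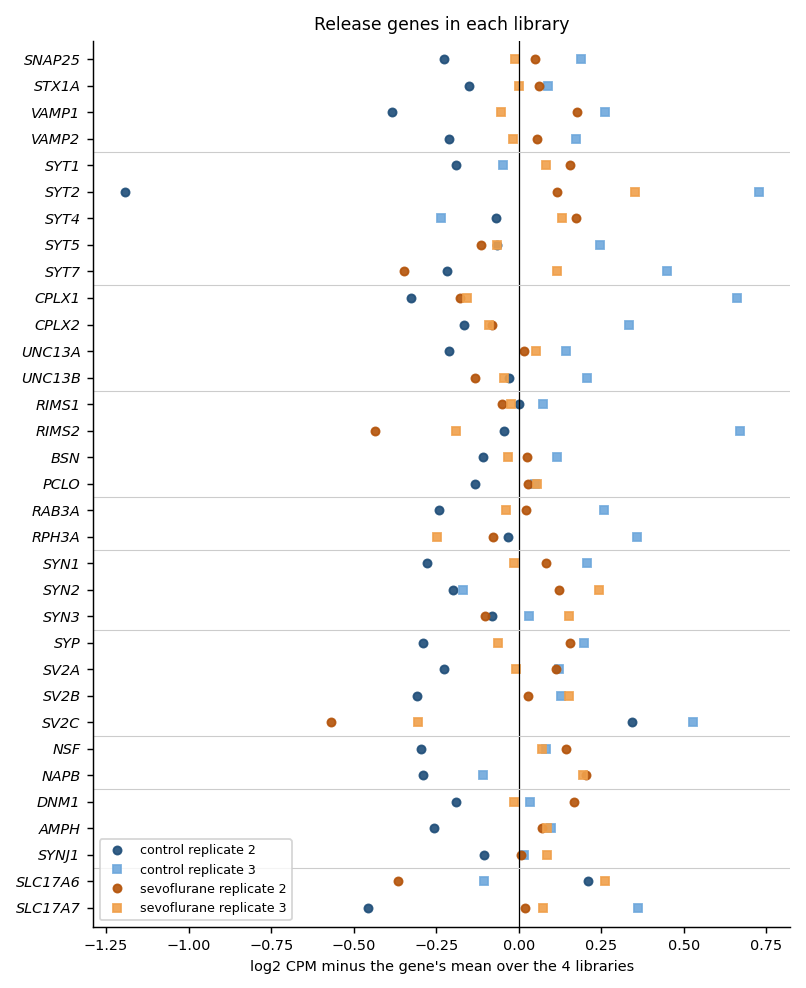
Level of each release gene in each library (x axis, log2 CPM minus the gene's mean over the 4 libraries), ordered by role with grey lines between roles. Control replicate 3 is the highest library for 22 of the 33 genes and control replicate 2 the lowest for 23, with SYT2 the most spread.

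The control libraries differed from each other in nearly every release gene. Control replicate 3 was above control replicate 2 for 31 of 33 genes, against 49.2% of all tested genes, with a median ratio of 1.28 (all tested genes: 0.994). The exceptions were SYT4 (0.892) and SLC17A6 (0.802). The sevoflurane libraries had a median ratio of 1.01 between them. The ratio ran up to 3.79 for SYT2, with 1.98 for CPLX1, 1.76 for SLC17A7 and 1.64 for RIMS2.

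General neuron markers differed the same way between the control libraries, and other neuron markers did so less evenly. Of 14 general neuron markers 14 were higher in control replicate 3, with ratios from 1.003 for MAP2, a dendritic microtubule protein, upward and a median of 1.497. Their summed level was 7625 CPM in control replicate 2 and 10159 CPM in control replicate 3, a ratio of 1.33. NRGN, a postsynaptic calmodulin-binding protein, made a large part of that rise, at 1228 and 2286 CPM. The sevoflurane libraries had sums of 9395 and 9271 CPM. Of 11 excitatory neuron markers 8 were higher in control replicate 3 (summed level 2948 and 3393 CPM), and of 14 inhibitory neuron markers 9 were (1085 and 1106 CPM). Of 14 mature oligodendrocyte markers 14 were higher there too. The share of neurons in each tissue piece was not measured, and its part in these values was not tested.

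**Figure D4:**
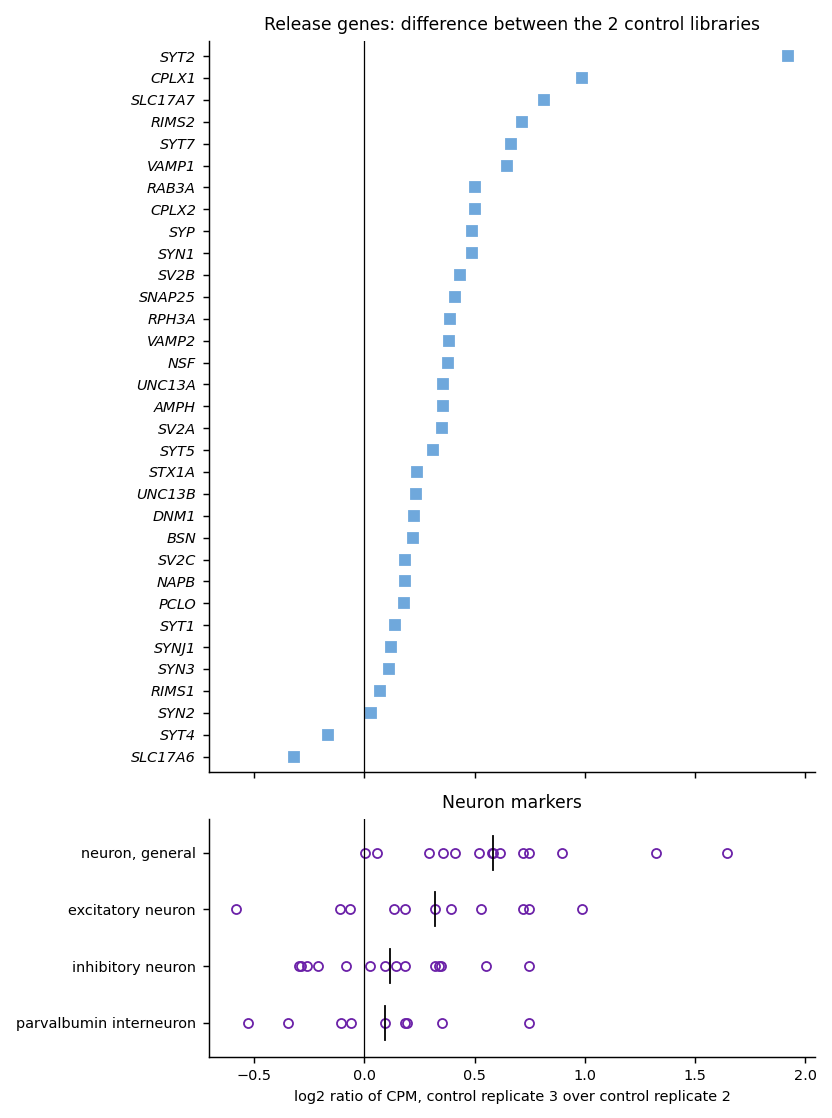
Ratio of control replicate 3 to control replicate 2 in CPM (x axis, log2) for each release gene (top, squares) and for the markers of 4 neuron lists (bottom, 1 circle per gene, with a bar at the median). Of the release genes 31 of 33 lie to the right of 0, as do 14 of 14 general, 8 of 11 excitatory, 9 of 14 inhibitory and 5 of 9 parvalbumin neuron markers.

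Ratios between related genes within a library do not depend on how libraries are scaled. Counts of one gene per 100 counts of another were compared for 9 pairs of related genes. They are given as a description, and no test of a ratio was made. The counts are not divided by transcript length, so a ratio is read across libraries and not as a ratio of molecules. SV2C had 8.44 and 7.52 counts per 100 of SV2A in controls, replicate 2 first, and 3.54 and 4.62 after sevoflurane. On the log2 scale the mean differed by -0.98, with SDs of 0.12 in controls and 0.27 after sevoflurane (n = 2 per group). UNC13B had 23.1 and 21.2 counts per 100 of UNC13A in controls and 18.3 and 19.0 after sevoflurane, a log2 difference of -0.25 (SDs 0.09 and 0.04). RIMS2 had 3.48 and 5.45 per 100 of RIMS1 in controls and 2.76 and 3.21 after sevoflurane (-0.55, SDs 0.46 and 0.16). In these 3 of the 9 pairs both controls were above both sevoflurane libraries. Among single genes the groups did not overlap for 41.2% of all tested genes, and no such share was computed for ratios. For RIMS2 the controls differed from each other by more than the groups did.

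In the other 6 pairs the groups overlapped. SLC17A6 had 2.46 and 1.12 counts per 100 of SLC17A7 in controls and 1.19 and 1.76 after sevoflurane, so the transporter balance differed by more between the controls than between the group means. SYT2 had 0.780 and 2.68 per 100 of SYT1 in controls and 1.52 and 1.88 after sevoflurane. SYN2 had 27.1 and 19.8 per 100 of SYN1 in controls and 26.4 and 30.6 after sevoflurane. VAMP1 had 0.979 and 1.18 per 100 of VAMP2 in controls and 1.2 and 1.08 after sevoflurane. The log2 differences of SV2B to SV2A (0.07) and of CPLX1 to CPLX2 (-0.16) were smaller than the larger of the within-group SDs, 0.17 and 0.34.

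**Figure D5:**
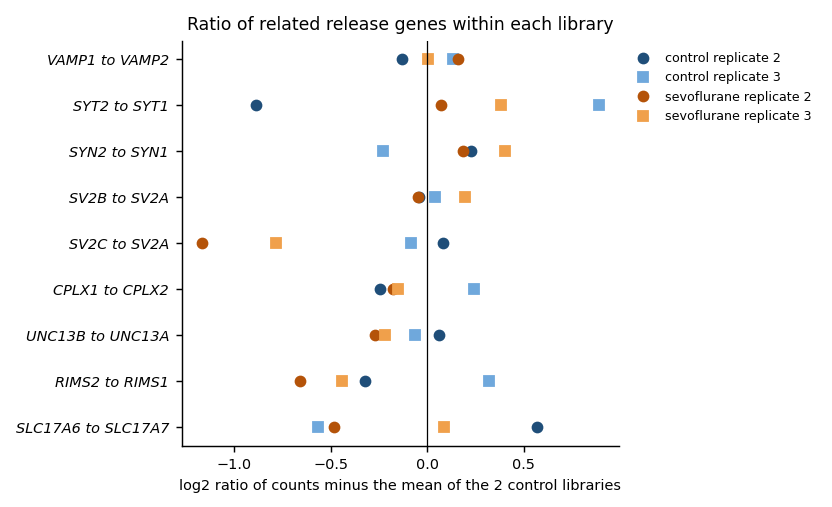
Log2 ratio of the counts of 2 related release genes in each library, minus the mean of the control libraries (x axis), for 9 pairs. Both sevoflurane libraries lie below both controls for SV2C to SV2A, UNC13B to UNC13A and RIMS2 to RIMS1, and the widest spread between controls is that of SYT2 to SYT1.

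A wider list held 109 other release and recycling genes, of which 105 were tested. By edgeR 0 were called, and 1, BIN1, was called by DESeq2 and by limma-voom. By edgeR 15 had an unadjusted p under 0.05 (11 higher and 4 lower), beside the 9.92% over all genes. The median log2 fold change was 0.08. By role, the medians were 0.14 for 19 other SNARE and SNARE-binding genes, 0.23 for 12 other synaptotagmins and calcium sensors and -0.09 for 17 other priming and docking genes. They were 0.13 for 15 other active zone genes, 0.09 for 13 other vesicle membrane genes, -0.03 for 26 other endocytosis genes and -0.25 for 3 other vesicular transporters.

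Of these, BIN1 had the smallest p. BIN1, the second amphiphysin, shapes membranes in endocytosis and is also strongly expressed by oligodendrocytes. It was at 364.4 and 475.1 CPM in controls and 246.8 and 241.4 CPM after sevoflurane (-0.78, SE 0.14, adjusted p = 0.0544). It was called by DESeq2 (adjusted p = 0.000257) and by limma-voom (adjusted p = 0.048). The summed mature oligodendrocyte markers had the same order of groups in these libraries, as given above, and their part in the BIN1 value was not tested. AMPH, the amphiphysin of nerve terminals, had 0.15.

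The next by p were 3 genes with higher and 2 with lower values, none of them called. SYT13, a synaptotagmin without calcium binding, was at 288.7 and 298.2 CPM in controls and 399.9 and 379.8 CPM after sevoflurane (0.41, SE 0.11, adjusted p = 0.219). ATP6V1A, a subunit of the proton pump that energises vesicle filling, was at 59.9 and 56.4 CPM and then at 77.7 and 82.9 CPM (0.46, SE 0.14, adjusted p = 0.278). RAB3C, a relative of RAB3A, was at 85.8 and 71.6 CPM and then at 109.3 and 105 CPM (0.44, SE 0.14, adjusted p = 0.308). In all 3 the groups did not overlap, as for 41.2% of all tested genes. VAMP3, a SNARE of many cell types, was at 56.7 and 50.1 CPM in controls and 36.8 and 38.4 CPM after sevoflurane (-0.51, SE 0.16, adjusted p = 0.291). SYNGR2, a synaptogyrin found outside neurons, was at 11.6 and 14.3 CPM in controls and 7.77 and 6.96 CPM after sevoflurane (-0.81, SE 0.26, adjusted p = 0.306). Both controls were above both sevoflurane libraries for VAMP3 and SYNGR2. Genes picked by the smallest p tend to have groups that do not overlap, so these orders add no support.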

How the data were processed

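The values are raw read counts per gene, which the authors deposited as a single table of the 4 libraries. Per the submitters' processing notes HISAT2 was the aligner. Its version, the counting program, genome build, annotation and strand setting are not given in the labels or the file header. Reads of near-identical or overlapping genes are therefore uncertain, and no coordinates are given. Control libraries held 10059944 (replicate 2) and 7793757 counts (replicate 3), and sevoflurane libraries 11703857 and 11706115.

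The edgeR filter (10 counts at the median depth in 2 libraries, 15 in total) left 17693 genes and all 33 members. After TMM scaling, the groups were compared over all genes with the quasi-likelihood F test of edgeR 4.0.16 (R 4.3.3), two-sided, with no other term in the model. Calls were made at an adjusted p (Benjamini-Hochberg) under 0.05. Standard errors and 95% intervals are Wald estimates from that fit. The steps were tested on simulated counts. Alternatives were DESeq2 1.42.0, limma-voom (limma 3.58.1), other scalings and filters, the replicate number as a block and leaving out each library.

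The members and lists were chosen with earlier results of these data known. Values in every library are given for the member of each role with the highest mean and with the smallest p, members with a log2 change of at least 0.5, members of the 9 pairs, and the 6 other release genes with the smallest p at a mean of at least 1 CPM. Of all listed genes, 5 were not found and 2 were matched by RefSeq gene number (assembly T2T-MMU8v2.0, names only).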

Additional observations from a re-analysis of the deposited data

How the results depend on the processing

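Of the 33 release genes, 13 kept the sign of their log2 fold change under every alternative run, and 20 changed sign under at least 1. The 13 included SV2C, NAPB, SYN2, SYT4, SYT1 and RPH3A, whose groups did not overlap. Without overlap, leaving out 1 library can hardly change a sign, so a kept sign adds little. No share of kept signs was computed over all tested genes. BSN was at 0.0084 with library size alone, and the other sign changes came from leaving out 1 library. The ranges over the 4 left-out libraries were -0.17 to 0.24 for SNAP25, -0.057 to 0.18 for STX1A, -0.20 to 0.45 for VAMP1, -0.15 to 0.23 for VAMP2, -0.49 to 1.43 for SYT2, -0.55 to 0.12 for SYT7, -0.83 to 0.16 for CPLX1 and -0.42 to 0.079 for CPLX2. They were -0.11 to 0.25 for UNC13A, -0.12 to 0.11 for BSN, -0.0078 to 0.17 for PCLO, -0.27 to 0.23 for RAB3A, -0.17 to 0.31 for SYN1, -0.077 to 0.18 for SYN3, -0.15 to 0.34 for SYP and -0.071 to 0.28 for SV2A. They were -0.039 to 0.40 for SV2B, -0.022 to 0.33 for AMPH, -0.43 to 0.20 for SLC17A6 and -0.31 to 0.50 for SLC17A7. The median of the 33 genes ran from -0.12 to 0.23, and was between 0.05 and 0.07 under the scalings, filters and other tests.

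The number of release genes called ran from 0 to 2 with 1 library left out: CPLX1 and RPH3A without control replicate 2, and SYT2 and SLC17A7 without control replicate 3. A lone library of a group is assumed to vary like those of the other group. With the replicate number as a block, 1 of the 33 was called, SV2C (-0.87, adjusted p = 0.01), in a fit with 1 residual degree of freedom that called 511 genes in all. The labels do not say that the numbers pair the libraries, and the deviations of same-numbered libraries had a correlation of 0.009. Among the other release and recycling genes, 1 was called with the stricter filter, by DESeq2, by limma-voom, with the replicate block and at an adjusted p under 0.1 (BIN1 each time), and 0 to 2 with 1 library left out. These 2 were BIN1 and SNCB, the gene of beta-synuclein, without either control library, and SNCB had opposite signs, -0.59 (adjusted p = 0.0268) without control replicate 2 and 0.65 (adjusted p = 0.0413) without control replicate 3. Over all genes, 60 were called with no filter, 279 by DESeq2 and 145 to 283 with 1 library left out, against 106. RIMS2 and VAMP1 had the fewest counts of the 33 (88 to 122 and 92 to 155 per library), and with SYT2 (93 to 312) the largest SEs.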

Other observations

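Among the other release and recycling genes, SYT10, a calcium sensor of secretion chosen here after its values were seen, differed mainly between the control libraries. It was at 30.6 CPM in control replicate 2 and 10.9 CPM in control replicate 3, a ratio of 0.355, and at 14.8 and 15.1 CPM after sevoflurane. The log2 fold change was -0.49 (adjusted p = 0.76), and SYT10 was not called by edgeR. Control replicate 3 was its lowest library, as for 31.7% of all tested genes. That library was the highest for 22 of the 33 genes above.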
